A study of Homo sapiens with 48 samples.

Results

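Probe alone was compared with DMSO at 3 h and 6 h in HEK293T cells, a human embryonic kidney line, that had been transiently transfected with a plasmid encoding a HaloTag fusion of NCBP1, the scaffold of the complex that binds the cap of new transcripts in the nucleus. The members were the 16 libraries titled probe alone (Pre) or DMSO at these times, 4 in each of 4 groups, out of 48 libraries in the series. Probe alone cells received Ht-PreHNE, a HaloTag-directed photocaged precursor of the lipid-derived electrophile 4-hydroxynonenal, and were kept from the uncaging light. The methods describe incubation with the probe and then rinsing before the light step. They count the times from that step, so 3 h and 6 h are not the length of the incubation. DMSO cells received the vehicle without light. All cells carried the NCBP1-Halo plasmid on a background labelled WT, and the expression from it was transient. The other arms, T-REX (probe and light) and light alone, and the 12 h libraries, entered only where stated. The study's methods list the probe among the reagents of light alone as well, so what that arm received is not certain here. The libraries were stated to be independent biological quadruplicates.

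The 16 libraries held 26482339 to 35169002 counts over 14685 genes. Of the 8 marker genes fixed for this line, 7 were listed and PAX2 was not. VIM stood at 454 to 582 CPM (counts scaled to a common library total) and IRS4 at 398 to 522 CPM. CDH2, NEFL and NEFM lay between 22.2 and 83.9 CPM. KRT8, at 5.53 to 10.3 CPM, and KRT18, at 7.01 to 12.9 CPM, were the lowest. Of 7 markers of blood, liver, endothelium, fibroblasts and muscle, only COL1A1 was listed, at 2.51 to 5.34 CPM. Levels are CPM after TMM scaling, and differences are log2 fold changes of probe alone over DMSO from edgeR's quasi-likelihood fit, with a gene called at a Benjamini-Hochberg adjusted p of at most 0.05. The comparison asks which transcripts differ when the still caged probe is given without light.

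Retinoic acid receptors such as RARB are nuclear receptors that sit on direct repeats in DNA as partners of RXR, and RARB is itself a textbook target of retinoic acid. Cells short of sterols release the membrane-bound factor SREBP-2, which raises the enzymes of cholesterol synthesis and INSIG1, the protein that in turn holds SREBP in the endoplasmic reticulum. CREB3L2 is a transcription factor anchored in the same membrane, and SEC24D is a coat subunit of the vesicles that carry cargo out of it.

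Few genes passed the test. At 3 h 1 of 14685 genes was called (0.00681%), at 6 h 4 (0.0272%), and in the mean of both times, with time as a factor, 7 (0.0477%), of which 6 rose and 1 fell. The 6 that rose were RARB, INSIG1, CREB3L2, PDE4D, IDI1 and SEC24D, and the gene that fell was ENSG00000280322. At an unadjusted p of at most 0.05, 619 genes were higher (4.22%) and 393 lower (2.68%) in the mean. The corresponding shares were 2.7% higher and 2.41% lower at 3 h, and 3.26% higher and 4.96% lower at 6 h. For the 10089 genes above a log2 CPM of 3 the 95% interval of the mean log2 fold change reached a median of 0.115 either side. Smaller differences were thus mostly not told apart from 0 even before adjustment. Larger ones could also go uncalled after adjustment. The smallest called difference was 0.213.

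**Figure D1:**
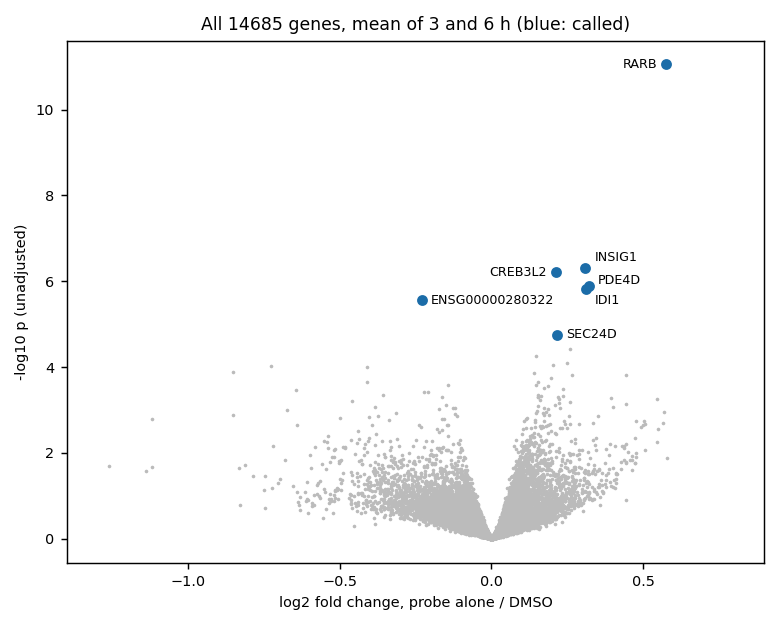
Each point is 1 of the 14685 genes, with the log2 fold change of probe alone over DMSO in the mean of 3 and 6 h on the horizontal axis and the unadjusted -log10 p on the vertical axis. The 7 called genes are blue, and RARB stands apart at a log2 fold change of 0.58.

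RARB was higher with the probe at both times. At 3 h it stood at 37.5, 41.9, 33.4 and 33.1 CPM in probe alone replicates 1 to 4 and at 26.4, 25.1, 23.9 and 24.7 CPM in DMSO. At 6 h the values were 57.0, 52.7, 51.9 and 51.4 CPM with the probe and 35.7, 38.7, 33.9 and 32.3 CPM in DMSO. The groups did not overlap at either time, and DMSO itself stood higher at 6 h than at 3 h. How many of all genes separate the groups in this way was not counted. The log2 fold change was 0.54 (SE 0.087, n = 4 per group, edgeR adjusted p = 0.0462) at 3 h and 0.60 (SE 0.0771, adjusted p = 0.00072) at 6 h. In the mean it was 0.58 (95% interval 0.46 to 0.69, edgeR adjusted p = 1.3e-07), or 1.49-fold. The 3 h call was lost in 12 of 16 fits that left out 1 library, namely any of the 8 probe alone or DMSO libraries and replicates 2 and 4 of T-REX and of light alone, and in limma-trend (adjusted p = 0.064), with edgeR log2 fold changes from 0.47 to 0.59, while the mean and the 6 h call were kept in every such fit.

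The RARB start region is shown because its gene led all 3 comparisons and the window holds the direct repeat that retinoid receptors are known to bind. The 250 bases before the gene's start (RefSeq, GRCh38.p14, chr3:25428013-25428262, plus strand) are printed 5′ to 3′, with the repeat in capitals.
RARB: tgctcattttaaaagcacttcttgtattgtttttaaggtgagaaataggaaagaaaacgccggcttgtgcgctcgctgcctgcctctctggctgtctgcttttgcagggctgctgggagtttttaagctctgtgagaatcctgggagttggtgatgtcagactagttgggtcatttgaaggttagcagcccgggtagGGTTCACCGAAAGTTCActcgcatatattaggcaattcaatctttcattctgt
The search took 2 units in the same direction with 5 bases between them, on both strands. A unit was AGGTCA or its variants, namely AGTTCA, then GGGTCA, and lastly GGTTCA. The repeat ended 36 bases before the start. It occurred in windows of 250 bases before to 50 after the start in 29 of 27305 genes (0.106%). Of the 5 called genes with an entry in the table, RARB alone held it. The variants searched include both units of the RARB repeat, so a match in RARB was fixed by the pattern. The match describes letters in a window and was not tested for binding.

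No other retinoid gene was called. Of 23 listed, 14 were tested, and RARB was the 1 called. Over the 14, RARB included, the median log2 fold change was 0.07, against 0.00 over all genes, with 9 above 0 and 5 below. Among the receptors, RARA measured -0.21 (95% interval -0.57 to 0.15), RARG 0.12 (-0.19 to 0.43) and RXRA -0.16 (-0.50 to 0.19). DHRS3, a retinal reductase and common retinoic acid target, measured 0.24 (SE 0.0976, edgeR adjusted p = 0.618), and ALDH1A3, which makes retinoic acid, 0.25 (SE 0.116, adjusted p = 0.692). CYP26B1, which degrades retinoic acid, measured 0.09 (SE 0.111). CYP26A1 was not listed in the count tables.

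**Figure D2:**
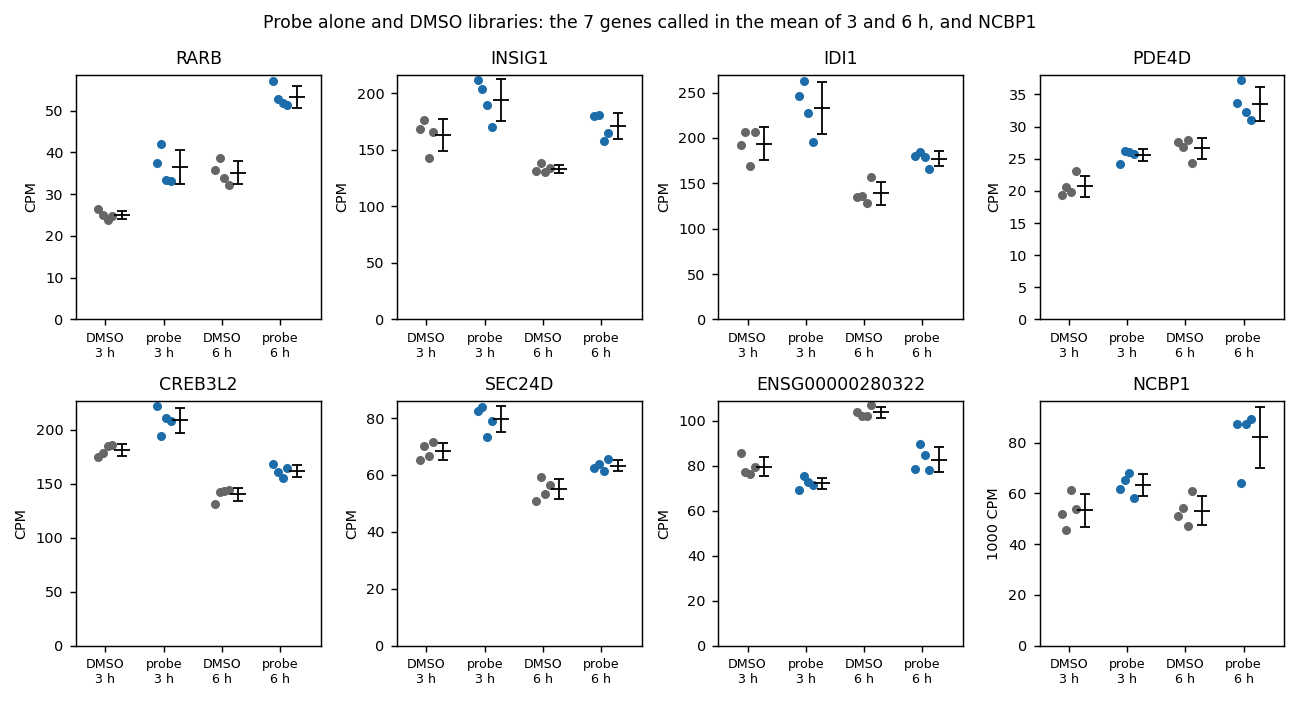
Panels show the TMM-scaled CPM of each called gene, and of NCBP1 (its axis in units of 1000 CPM), in the 16 libraries (points), with the mean and SD of each group of 4 beside them. RARB, PDE4D, CREB3L2, SEC24D and ENSG00000280322 separate the groups at both times, and NCBP1 overlaps at 3 h. Separation is not particular to called genes: STARD4, FDFT1 and SCD, which were not called, also separate at both times.

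INSIG1, of the sterol regulation list, and IDI1, of the sterol synthesis list, rose with the probe, and no other member of either list was called. INSIG1 stood at 212, 204, 190 and 170 CPM in the probe alone libraries and 168, 176, 143 and 166 CPM in DMSO at 3 h. At 6 h it stood at 180, 181, 158 and 165 CPM with the probe and 131, 138, 130 and 134 CPM in DMSO. At 3 h the lowest probe alone library lay below the highest DMSO library, and at 6 h the groups were apart. INSIG1 rose by a mean log2 fold change of 0.31 (SE 0.0505, edgeR adjusted p = 0.00303), or 1.24-fold.

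IDI1, the isomerase that turns isopentenyl diphosphate into its reactive isomer, stood at 246, 263, 227 and 196 CPM with the probe and 192, 207, 169 and 207 CPM in DMSO at 3 h. At 6 h the values were 180, 184, 179 and 166 CPM against 135, 136, 128 and 157 CPM. These groups also overlapped at 3 h and not at 6 h. IDI1 rose by 0.31 (SE 0.0535, edgeR adjusted p = 0.00449) in the mean, and the call was lost when only the probe alone and DMSO libraries were fitted (adjusted p = 0.0754). INSIG1 and IDI1 were each called at 6 h (adjusted p = 0.0482 for both), and neither call was stable. Both were lost with RLE size factors (adjusted p = 0.0539 and 0.0541) and in the fit of all 32 libraries (0.067 and 0.142), and IDI1 also with a replicate block (0.126). With 1 of the 16 libraries of 6 h left out, INSIG1 was not called in 10 fits and IDI1 in 12.

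Of 20 sterol synthesis genes 19 were tested, 1 was called higher and none lower, 16 were above 0 and the median was 0.14. At an unadjusted p of at most 0.05, 11 were higher and 0 lower, against 4.22% and 2.68% of all genes. HMGCS1, which makes the HMG-CoA of the mevalonate pathway, measured 0.26 (SE 0.0544, edgeR adjusted p = 0.0697), just outside the threshold. Further members outside it were ACAT2 at 0.20, DHCR7 at 0.24 and FDFT1 at 0.15 (edgeR adjusted p from 0.11 to 0.202). LSS measured 0.05, EBP -0.08 and MVD -0.10, with intervals that included 0.

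Of 17 genes of sterol regulation and uptake 16 were tested, with INSIG1 called, 11 above 0 and a median of 0.02. STARD4, a sterol carrier, measured 0.20 (SE 0.0467, edgeR adjusted p = 0.148). The transcripts of the machinery itself lay near 0, with SREBF2 at 0.03, SREBF1 at -0.01, SCAP at 0.01 and MBTPS1 at 0.00. ABCA1, a sterol exporter driven by liver X receptors, measured 0.26 (SE 0.0959, adjusted p = 0.561). Of 12 fatty acid synthesis genes none was called, 11 were above 0 and the median was 0.10. ELOVL5 measured 0.15, LPIN1 0.22 and SCD 0.15 (edgeR adjusted p from 0.164 to 0.202), and FASN measured -0.36 with an interval from -0.92 to 0.21.

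**Figure D3:**
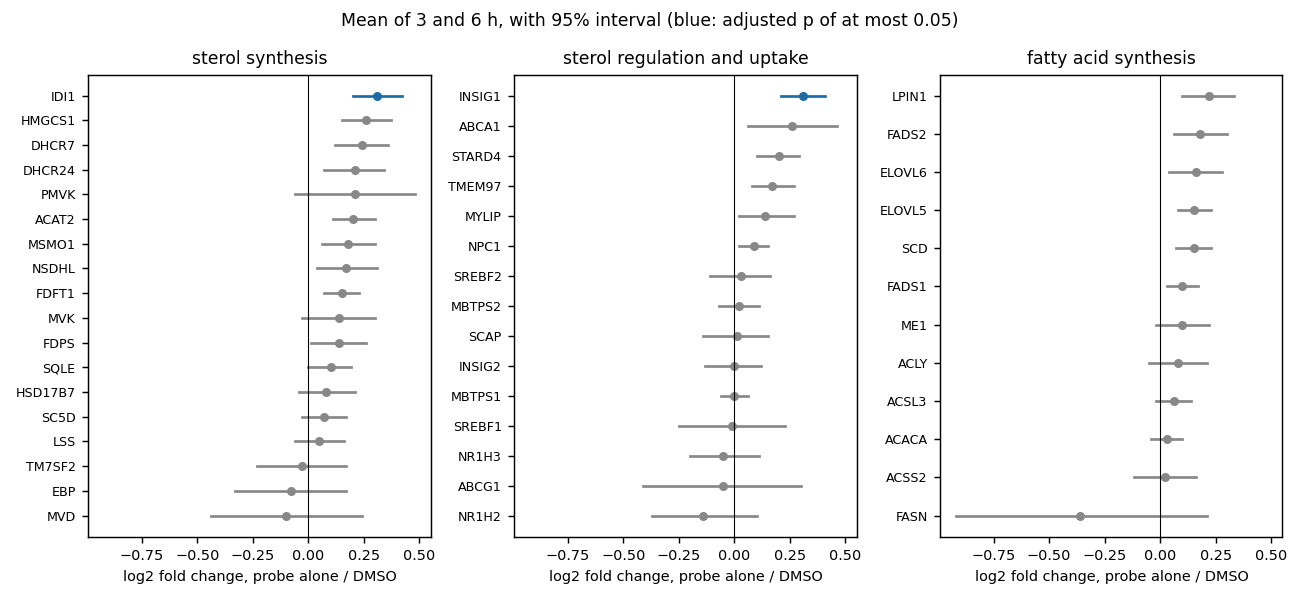
Points are log2 fold changes of probe alone over DMSO in the mean of 3 and 6 h and lines their 95% intervals, for tested members of 3 lists. IDI1 and INSIG1 (blue) were called, both at 0.31.

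The sterol response element TCACNCCAC, searched on both strands, was in 0 of 14 sterol synthesis promoters and 1 of 14 promoters of the regulation list (SREBF2), against 1.39% of all genes. Only these letters were searched.

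CREB3L2 and SEC24D, both of the unfolded protein response list, had higher group means with the probe at both times. In the main fits neither was called at 3 h or 6 h alone, only in the mean. CREB3L2 stood at 222, 194, 211 and 208 CPM against 175, 178, 185 and 186 CPM in DMSO at 3 h. At 6 h it stood at 168, 161, 155 and 164 CPM against 131, 142, 143 and 144 CPM. No probe alone library fell within the DMSO range. The mean log2 fold change of CREB3L2 was 0.21 (SE 0.0352, edgeR adjusted p = 0.00303). SEC24D stood at 82.6, 83.8, 73.4 and 79.1 CPM against 65.1, 70.1, 66.7 and 71.5 CPM at 3 h, and at 62.3, 63.8, 61.3 and 65.7 CPM against 51.0, 59.3, 53.4 and 56.6 CPM at 6 h. It rose by 0.22 (SE 0.0434, edgeR adjusted p = 0.0371), a call lost without any 1 of 10 single libraries (probe alone replicates 1, 2 and 4 and DMSO replicates 1 and 3 at each time; adjusted p from 0.0598 to 0.158).

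All 24 genes of that list were tested. Besides these 2, none was called, 21 were above 0 and the median was 0.10. At an unadjusted p of at most 0.05, 11 were higher at 3 h and 3 at 6 h, against 2.7% and 3.26% of all genes. The medians were 0.15 and 0.05, and the test of 6 h minus 3 h called 0 genes. The chaperone HSPA5 measured 0.18 and the disulfide isomerase PDIA4 0.16 in the mean (edgeR adjusted p = 0.336 for both), and XBP1 0.07. The integrated stress response list, whose genes follow ATF4, had no called member among 30, with 14 above 0 and a median of 0.00. ATF3 measured -0.16 and DDIT3 -0.31 (edgeR adjusted p = 0.524 and 0.607).

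PDE4D, a phosphodiesterase that degrades cyclic AMP, stood at 24.2, 26.2, 26.0 and 25.8 CPM with the probe and 19.4, 20.6, 19.8 and 23.1 CPM in DMSO at 3 h. At 6 h it stood at 33.6, 37.2, 32.2 and 31.1 CPM against 27.6, 26.8, 27.9 and 24.3 CPM. The groups were apart at both times. PDE4D rose by 0.32 (SE 0.0552, edgeR adjusted p = 0.00449) in the mean.

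ENSG00000280322 (AL035425.4) was the 1 gene that fell. It stood at 69.4, 75.3, 72.7 and 71.4 CPM with the probe and 85.5, 77.3, 76.5 and 79.3 CPM in DMSO at 3 h, and at 78.4, 89.5, 84.8 and 78.3 CPM against 104, 102, 102 and 107 CPM at 6 h. The groups were apart at both times, by a small margin at 3 h. It fell by 0.23 on the log2 scale (SE 0.0414, edgeR adjusted p = 0.00686). GENCODE 29 gives it the type TEC, a transcript model still to be tested, 5534 bases past the end of IRS4 on the same strand. IRS4, an insulin receptor substrate abundant in this line, measured -0.15 (SE 0.0411, adjusted p = 0.248), and ENSG00000261409 (AL035425.3), next to both, -0.17 (SE 0.0603, adjusted p = 0.524). Whether the 3 share reads or a transcript was not tested.

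NCBP1, which counts of the plasmid and the endogenous gene make up together, was higher on average with the probe but was not called in the main fits. It took 5.91% to 6.73% of all counts with the probe and 4.56% to 6.1% in DMSO at 3 h, and 6.37% to 8.72% against 4.83% to 6.07% at 6 h. The ranges overlapped at 3 h and not at 6 h. The mean log2 fold change was 0.44 (95% interval 0.24 to 0.65, edgeR adjusted p = 0.134), and at 6 h 0.63 (SE 0.136, adjusted p = 0.254). Other fits called it: in the mean, DESeq2 (adjusted p = 0.00692), edgeR with a replicate block (0.00592) and edgeR with the RUV factors as covariates (0.00193). These fits called 20, 10 and 543 genes in the mean, against 7 in the main fit. At 6 h the same fits gave adjusted p = 0.0229, 0.0116 and 0.00132. NCBP2, its partner in the complex, measured 0.03 (SE 0.0505). The part of the NCBP1 difference in the other results was not tested.

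Lists tied to electrophiles showed no called gene. Of 21 NRF2 targets tested 15 were above 0 with a median of 0.02, and PGD and GCLM, those of smallest p, measured 0.16 and 0.09. Of 28 aldehyde and glutathione enzymes the median was 0.03, with ALDH5A1 at 0.16 and ALDH18A1 at 0.13. Of 19 heat shock genes the median was 0.03, with HSPA4L at 0.07 and HSPA8 at 0.09. Of 7 genes of the aryl hydrocarbon receptor list the median was -0.03, with AHR itself at -0.07, its target CYP1B1 at 0.12 and TIPARP at -0.10.

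The remaining lists had no called gene either. Of 20 immediate early genes 18 were below 0 with a median of -0.12, and JUNB measured -1.12 (SE 0.457, edgeR adjusted p = 0.647) and ZFP36 -0.36 (SE 0.15). JUNB was at 0.524 to 1.63 CPM with the probe and 0.92 to 3.11 CPM in DMSO at 3 h, where the groups overlapped. At 6 h it stood at 0.993, 1.65, 1.72 and 1.62 CPM with the probe and 5.27, 2.42, 5.37 and 2.50 CPM in DMSO, with no overlap, at -1.37 (SE 0.273, edgeR adjusted p = 0.0859), and DESeq2 called it there. Of the 20 genes, 19 were below 0 at 6 h with a median of -0.23, and 6 were lower at an unadjusted p of at most 0.05 (4.96% of all genes), against 0 at 3 h. Of 41 replication-dependent histone genes 30 were below 0 with a median of -0.13, with H2BC15 at -0.36 and H3C12 at -0.73. At 6 h 13 of these 41 had an unadjusted p of at most 0.05 and were lower (4.96% of all genes), against 0 at 3 h (2.41%). The test of 6 h minus 3 h called 0 genes, so neither the histone nor the immediate early genes were shown to differ between the times. Of 26 hypoxia genes the median was 0.07, with the glucose transporter SLC2A3 at 0.34 and PDK1 at 0.18. Medians were 0.00 for 20 p53 targets (TP53I3 0.21, CDKN1A -0.21), -0.02 for 10 interferon and NF-kB genes (NFKBIA -0.16, RELB -0.29) and 0.02 for 13 genes of the cap-binding complex and its partners (CTIF -0.21). They were -0.07 for 5 glucose sensing genes (MLXIP -0.09, ARRDC4 -0.09), 0.03 for 20 mitosis genes (CCNB1 0.05, CEP55 0.06) and 0.00 for 20 DNA replication genes (E2F1 -0.12, CDT1 -0.33). They were 0.02 for 16 mitochondrial transcripts (MT-RNR2 -0.81, MT-ND1 0.10) and 0.03 for 83 cytosolic ribosomal protein genes (RPL14 0.08, RPL9 0.09). MT-RNR2 is a ribosomal RNA, and the methods describe depletion of ribosomal RNA. Its groups overlapped at both times, with 14.3 CPM (SD 10.1) in probe alone and 29.1 CPM (SD 16.8) in DMSO at 6 h.

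**Figure D4:**
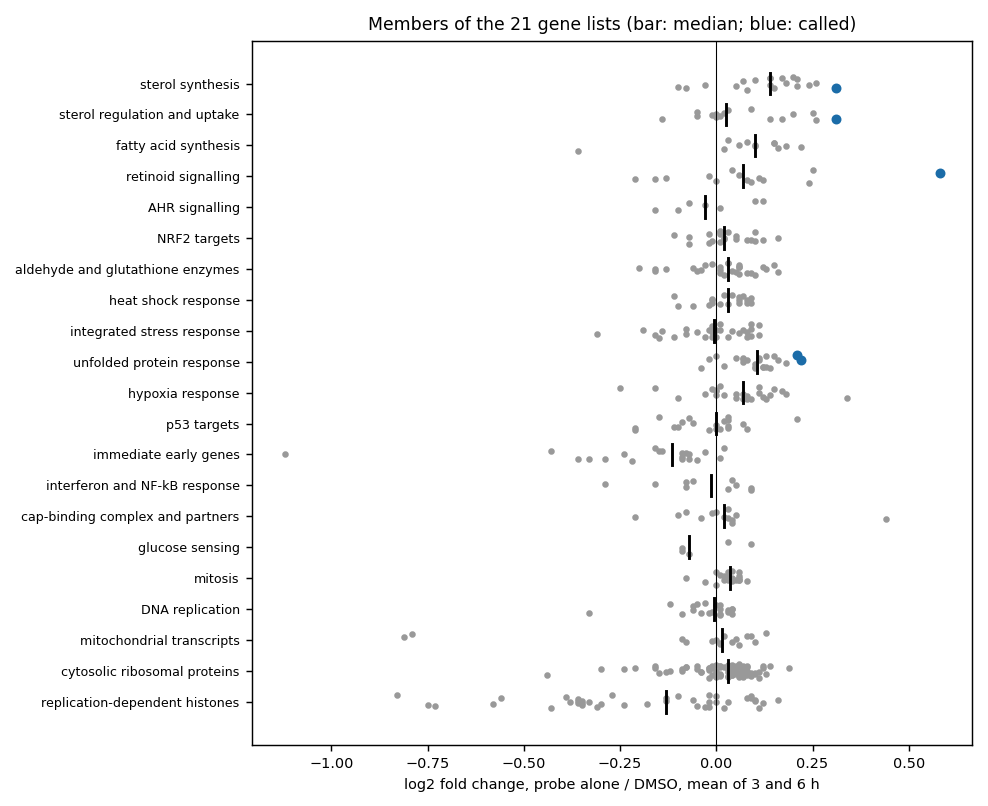
Each point is a tested member of 1 of 21 gene lists at its log2 fold change of probe alone over DMSO in the mean of 3 and 6 h, bars are list medians and blue points are called genes. The sterol synthesis median lies at 0.14, the immediate early median at -0.12 and that of the histone genes at -0.13.

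The probe effect was not shown to differ between 3 h and 6 h. The test of that difference called 0 of 14685 genes (0%) in edgeR and 0 in DESeq2, with 606 at an unadjusted p of at most 0.05 in edgeR. RARB differed by 0.05 (95% interval -0.19 to 0.28) and INSIG1 by 0.10 (-0.10 to 0.31). At 12 h, in libraries not used above, the same comparison called 751 genes (5.11%), and all 7 genes kept their direction. ENSG00000280322 was the 1 of the 7 called there, at -0.30 (SE 0.0472, edgeR adjusted p = 0.00126), and RARB measured 0.26 (SE 0.0831, adjusted p = 0.0624). The test of 12 h against the mean of 3 and 6 h called 81 genes (0.552%), none of them among the 7. That count ranged from 1 (without DMSO replicate 3 at 12 h) to 456 (without DMSO replicate 4 at 12 h) when 1 library was left out.

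T-REX against light alone, which shares no library with probe alone against DMSO, called 833 genes (5.67%) in the mean of 3 and 6 h. Of the 7 genes, 4 were called there in the same direction. CREB3L2 measured 0.41 (SE 0.0352, edgeR adjusted p = 1.92e-09), SEC24D 0.39 (SE 0.0433), PDE4D 0.23 (SE 0.0554) and ENSG00000280322 -0.22 (SE 0.0415). INSIG1 measured 0.14 and IDI1 0.07, neither called, and RARB -0.05 (95% interval -0.17 to 0.07). The test of the difference between these 2 comparisons called 12 genes (0.0817%), RARB among them at -0.63 (SE 0.0834, edgeR adjusted p = 5.14e-05).

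RARB also differed between the light arms and DMSO. It stood at 17.6, 16.5, 14.3 and 15.5 CPM in light alone and 19.8, 20.5, 17.3 and 17.5 CPM in T-REX at 3 h, all below the DMSO libraries. Light alone against DMSO called 1 gene in the mean (0.00681%), which was RARB at -0.43 (SE 0.0593, edgeR adjusted p = 0.000214). At 6 h the lowest DMSO library (32.3 CPM) lay below the highest light alone library (33.4 CPM). The order of group means at 3 h was probe alone, DMSO, T-REX and light alone, and at 6 h probe alone, DMSO, light alone and T-REX.

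**Figure D5:**
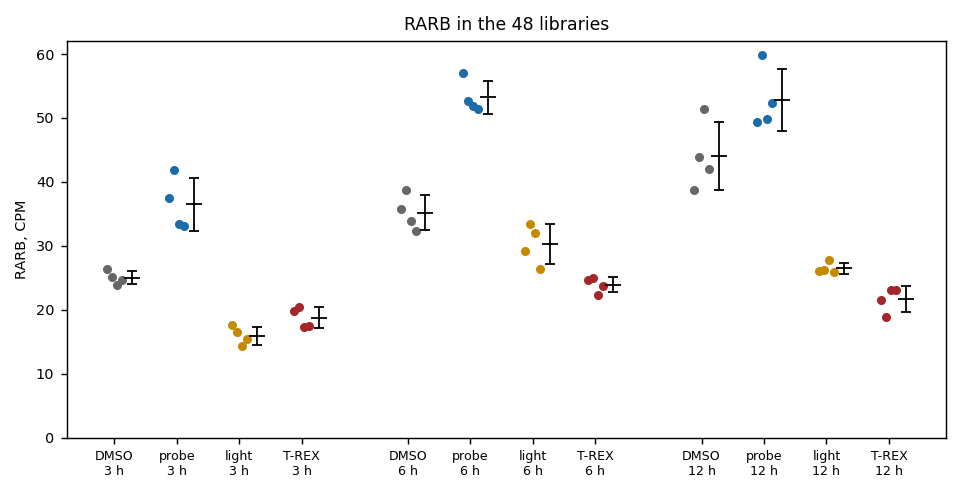
RARB in TMM-scaled CPM in all 48 libraries (points), by arm and time, with the mean and SD of each group of 4; scaling was done within each time. Probe alone is highest at 3 h and 6 h, and at 12 h its libraries overlap those of DMSO.

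Over the 16 libraries, after each time's mean was subtracted, the genes whose log2 CPM followed RARB most closely were INSIG1 (Pearson r = 0.903), COQ2 (0.902), DCTN4 (0.886), MEF2C (0.869) and SEC24D (0.867), among 13570 genes with a mean log2 CPM above 1. The lowest correlations were those of FBLIM1 (-0.856), GFOD2 (-0.854), H2BC20P (-0.834), AP4M1 (-0.833) and ABCB1 (-0.829). These libraries share the 2 treatments and their scaling, so the values are a description.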

How the data were processed

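RNA was extracted with TRIzol and made into stranded libraries, per the labels. The methods describe rRNA depletion and paired-end sequencing; the reporting summary names cutadapt, TopHat and Cufflinks for RNA-seq, and the tool that counted reads per gene and the genome build are not given in the sources used here. The authors deposited raw counts per gene, log2 CPM values, and factor scores of unwanted variation (RUV) for each library; the deposited RUV-transformed log2 values were not used. All 14685 genes passed the filter on low counts. Of these identifiers 13443 had a current symbol.

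Counts were scaled by TMM and fitted with edgeR 4.0.16 (limma 3.58.1, R 4.3.3) with quasi-likelihood tests, on the 16 libraries of all 4 arms within a time, or on the 32 libraries of 3 and 6 h with time as a factor. The threshold for a call was 0.05 after Benjamini-Hochberg adjustment. Alternatives were DESeq2 1.42.0 and limma-trend on the deposited log2 CPM. The fits were also run on counts simulated from their own dispersions with known changes. Such data cannot show misfit in these libraries. Named genes were NCBP1, NCBP2, every called gene, called members, receptors, enzymes and defining targets of the sterol, retinoid and AHR lists, and the 2 members of smallest p of other lists. Uncalled genes named outside that rule (among them HSPA5, PDIA4, XBP1, IRS4, ENSG00000261409, SCD, LSS, EBP, MVD and FASN) were chosen after their values were seen. Some members that these rules take are not reported here. Members and lists were chosen with earlier results of these data known. Intervals and p-values cover the spread between these libraries only. Replicate pairs of a group differed by more than counting noise (chi-square over its degrees of freedom 4.76 to 20.7 in 24 pairs).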

Additional observations from a re-analysis of the deposited data

Results flagged for a closer look

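Among 32 groups of 4 libraries (8 genes in 4 groups), where about 5% pass the criterion by chance, 2 held a library far from the other 3. NCBP1 was at 64232 CPM in 1 probe alone library at 6 h, below the other 3 at 87193 to 89353 CPM, and CREB3L2 at 131 CPM in 1 DMSO library at 6 h, below the other 3 at 142 to 144 CPM.

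Differences between comparisons passed a test for 7 genes of those named. T-REX over light alone minus probe alone over DMSO was -0.89 for TXNIP (SE 0.0993, edgeR adjusted p = 3.44e-06), -0.63 for RARB, -0.51 for ARRDC4 (SE 0.0886), -0.42 for TIPARP (SE 0.0784) and 0.30 for XBP1 (SE 0.0574). TXNIP and ARRDC4, arrestin-family genes that respond to glucose, measured 0.09 and -0.09 for probe alone over DMSO and were not called there. The probe effect at 12 h minus its mean at 3 and 6 h was 2.11 for HSPA6 (SE 0.361, edgeR adjusted p = 0.0076), a heat shock gene at 13 to 72 counts in the DMSO libraries at 12 h, and -0.43 for SCP2 (SE 0.0783). Without DMSO replicate 3 at 12 h SCP2 measured -0.35 and did not pass (edgeR adjusted p = 0.0613).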

How the results depend on the processing

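No alternative turned the direction of the 7 genes or of NCBP1 in the comparisons where they were followed. With the authors' RUV factors as covariates the counts of called genes rose to 183 at 3 h, 360 at 6 h, 543 in the mean, 29 for 6 h minus 3 h, 981 for T-REX over light alone against probe alone over DMSO (the difference with light), and 2021 for 12 h against 3 and 6 h; all 7 genes of the mean remained called, and the cause was not tested. DESeq2 called 27 genes at 6 h, 20 in the mean, 56 in the difference with light and 275 for 12 h. Limma-trend called 0 at 3 h (733 genes passed 0.05 without adjustment) and 50 for 12 h. Fits of only the probe alone and DMSO libraries called 2 at 3 h and 15 in the mean, 6 of them among the 7. RLE factors and the fit of all 32 libraries each called 2 at 6 h.

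With 1 library left out, calls ranged from 0 to 1 at 3 h, 1 to 10 at 6 h, 6 to 9 in the mean, 0 to 0 for 6 h minus 3 h, 10 to 46 for the difference with light (46 without light alone replicate 4 at 6 h) and 1 to 456 for 12 h (1 without DMSO replicate 3, 242 without replicate 1 and 456 without replicate 4 at 12 h). At 6 h, 1 gene (RARB) was called without probe alone replicate 1 or 4 or DMSO replicate 1, 10 without light alone replicate 3, 9 without DMSO replicate 4, and 2 when T-REX replicate 1, 2 or 3, probe alone replicate 2 or DMSO replicate 3 was left out.

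Replicate numbers were not shown to pair the samples. Probe alone and DMSO libraries with the same number correlated at -0.13 to 0.263 at 3 h and -0.267 to -0.0874 at 6 h. Only probe alone replicate 3 at 3 h was closest to the DMSO library of its own number. So few correlations cannot exclude a pairing. A replicate block called 1 gene at 3 h, 4 at 6 h (NCBP1 and not IDI1 among them), 10 in the mean, 0 for 6 h minus 3 h, 18 in the difference with light and 157 for 12 h. Each called gene had 549 counts or more in each of the 16 libraries.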
